A study of Mus musculus with 8 samples.

Results

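Glycogen is the branched glucose store of the cell, and 9 genes of its metabolism were followed here in brown adipose tissue (BAT): Ugp2, Gyg, Gys1, Gys2, Gbe1, Pygl, Pygb, Ppp1r3b and Ppp1r3c. They were picked by gene symbol for their known roles, with earlier results of these data known but by a rule that uses no measured value, and all 9 were found among the 49452 genes of the table. The study asked which transcripts follow BAT activity, and the table gives RNA-Seq levels as FPKM (fragments relative to transcript length and to the library's mapped fragments) in 8 libraries, 2 per condition. All were from male C57BL/6 mice. The groups were mice housed at 22 °C (replicates 4 and 7) and mice kept at 4 °C for 24 h (replicates 2 and 11), both 10 to 12 weeks old by the study's methods, and mice on NCD (normal chow in the labels, a control diet in the methods; replicates 6 and 8) and on a high-fat diet (HFD; replicates 2 and 6), both 32 weeks old after 28 weeks of feeding. By the methods, food was withdrawn for the last hours in the cold; whether this was done at 22 °C too is not stated, so for genes that respond to feeding, cold and fasting cannot be told apart. The 2 experiments also differed in age, so no test compared levels between them, and where values of all 8 libraries are set side by side, age and experiment cannot be told apart from the condition.

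Glycogen synthesis begins with UDP-glucose, made from glucose 1-phosphate by UDP-glucose pyrophosphorylase (Ugp2). Glycogenin (Gyg) primes the particle with a short glucose chain, glycogen synthase (Gys1, the isoform of muscle and most tissues, and Gys2, the isoform known from liver and also found in fat) lengthens the chains, and the branching enzyme (Gbe1) adds branch points. Glycogen phosphorylase (Pygl, known as the liver form, and Pygb, known as the brain form) releases glucose 1-phosphate again. Ppp1r3b and Ppp1r3c encode subunits that bring protein phosphatase 1 to glycogen, where it activates the synthase and inactivates the phosphorylase. Brown fat is known to hold glycogen, and its enzymes are controlled by phosphorylation as well as by transcript level, which is the layer measured here.

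The members whose levels stood out most in the comparisons that follow were Ugp2, Ppp1r3c, Pygl, Pygb and Gys2. RefSeq (GRCm38.p6) promoter windows were at hand for 7 of the 9 members, and for Gys2 and Ppp1r3b none were used. The 250 bases before the RefSeq start site of the other 4 genes named are shown, 5′ to 3′ on the gene's own strand, because these genes were those with calls among the members in the fit with library type described later. Capitals mark matches on either strand to TGACG, the core of the cyclic AMP response element, and to ACGTG, which also lies within the E-box CACGTG.
Ugp2, chr11:21371268-21371517, minus strand: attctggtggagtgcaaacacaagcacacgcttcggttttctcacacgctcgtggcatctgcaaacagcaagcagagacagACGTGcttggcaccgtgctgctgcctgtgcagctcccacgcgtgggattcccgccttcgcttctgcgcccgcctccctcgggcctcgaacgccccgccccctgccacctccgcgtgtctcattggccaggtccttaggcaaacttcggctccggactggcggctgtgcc
Ppp1r3c, chr19:36736605-36736854, minus strand: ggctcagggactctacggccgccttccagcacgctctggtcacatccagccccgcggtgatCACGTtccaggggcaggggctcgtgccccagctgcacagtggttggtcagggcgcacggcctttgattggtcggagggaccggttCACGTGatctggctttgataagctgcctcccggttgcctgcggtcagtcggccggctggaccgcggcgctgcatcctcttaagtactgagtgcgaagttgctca
Pygl, chr12:70227684-70227933, minus strand: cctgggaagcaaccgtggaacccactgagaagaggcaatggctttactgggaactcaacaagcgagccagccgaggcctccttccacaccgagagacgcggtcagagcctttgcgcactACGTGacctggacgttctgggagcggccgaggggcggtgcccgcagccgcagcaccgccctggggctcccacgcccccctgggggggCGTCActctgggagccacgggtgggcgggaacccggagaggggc
Pygb, chr2:150786546-150786795, plus strand: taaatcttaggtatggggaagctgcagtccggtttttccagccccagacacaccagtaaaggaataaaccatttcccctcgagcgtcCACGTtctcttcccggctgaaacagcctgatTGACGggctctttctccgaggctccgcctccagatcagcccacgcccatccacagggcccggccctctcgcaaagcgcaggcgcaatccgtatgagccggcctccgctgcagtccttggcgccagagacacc
The Ppp1r3c window held the E-box CACGTG 104 bases before the start and a further ACGTG, read on the opposite strand, 189 bases before it. The Pygl window held ACGTG 131 bases and TGACG, on the opposite strand, 44 bases before the start. The Pygb window held ACGTG on the opposite strand 163 bases and TGACG 132 bases before the start, and the Ugp2 window shown, 1 of 2 listed for the gene, held ACGTG 169 bases before it. None of the members' windows held the full element TGACGTCA. Over all 32851 windows of the RefSeq table, each with a short stretch after the start included, 1.79% held TGACGTCA, 20.8% TGACG, 7.15% CACGTG and 19.6% ACGTG on either strand. These matches describe the letters only.

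As background to all values, all 12 brown adipocyte markers listed were found above 0 in every library, with a summed level of 7626 to 18634 FPKM that rested on a few abundant genes. The sum was higher in the cold without overlap (7626 and 8106 FPKM at 22 °C, 16015 and 18634 FPKM at 4 °C). Of the 12 markers, 9 were higher and 2 lower without overlap, against 37.9% and 20.6% of all genes tested. Calls were made for 3 of them, against 1.44% of all genes. The part of this sum in the members' cold levels was not tested. Ucp1, the uncoupling protein of brown fat, measured 699 and 1427 FPKM at 22 °C and 6462 and 5371 FPKM at 4 °C. The 2 markers lower in the cold were Prdm16, a regulator of brown fat identity, and Adipoq. Prdm16 measured 4.54 and 8.03 FPKM at 22 °C and 3.12 and 3.72 at 4 °C, and 2.14 to 8.03 over all 8 libraries. Adipoq measured 717 and 491 FPKM at 22 °C and 395 and 302 at 4 °C. Skeletal muscle transcripts were present too and differed between groups. The 11 muscle markers found of 12 listed summed to 112 and 547 FPKM at 22 °C, 1984 and 4395 at 4 °C, 563 and 1530 on NCD, and 16.4 and 187 on HFD. The libraries were also of 2 kinds. The satellite-repeat gene Gm10800 exceeded 100 FPKM in the libraries called satellite-high, namely replicate 4 at 22 °C, replicate 11 at 4 °C, replicate 8 on NCD and replicate 2 on HFD. It measured 6464, 9038 and 15730 FPKM in those of 22 °C, NCD and HFD but 447 FPKM in that of 4 °C, which also listed fewer genes above 0 (26285) than the other 3 (31741 to 32686). In the other library of each group (satellite-low) it lay between 0.0998 and 4.13 FPKM. Results are therefore given as fitted on the 4 libraries of a comparison and, where it changed a call, with this library type as a covariate. Depth did not limit the members: judged from the smallest step between low FPKM values, 1 fragment per kilobase of usable transcript was worth 0.00809 to 0.0113 FPKM depending on the library, and the members were covered by an implied 3347 to 56080 fragments per library.

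At 22 °C Pygl was the most abundant of the 9 per unit length, at a mean of 97.6 ± 37.2 FPKM (SD, n = 2). It was followed by Gbe1 (50.5 ± 6.81), Ugp2 (36.6 ± 7.13) and Gyg (28.5 ± 0.559), each with both libraries above both of the next gene. Below them Gys1 (24.6 ± 1.49), Pygb (23.3 ± 3.1), Ppp1r3b (17.4 ± 8.89), Gys2 (16.8 ± 5.4) and Ppp1r3c (14.1 ± 1.67) overlapped each with its neighbour. At 4 °C Pygl stayed first at 167 ± 15.9 FPKM and Pygb was last at 9.88 ± 1.96, below both libraries of every other member. On NCD Ugp2 (86 ± 43.5 FPKM) and Pygl (72.7 ± 11.1) overlapped at the top. On HFD Pygl, at 25.8 ± 4.3 FPKM, ranked behind Ugp2 (45.2 ± 4.68) and Gbe1 (35.3 ± 1.95) in both libraries. Pygl was also below Gyg (33 ± 14) within each HFD library, although the values of these genes overlapped across the libraries. The order of the synthase isoforms differed as well, with Gys1 above Gys2 in both libraries at 22 °C and Gys2 above Gys1 in both at 4 °C.

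**Figure D1:**
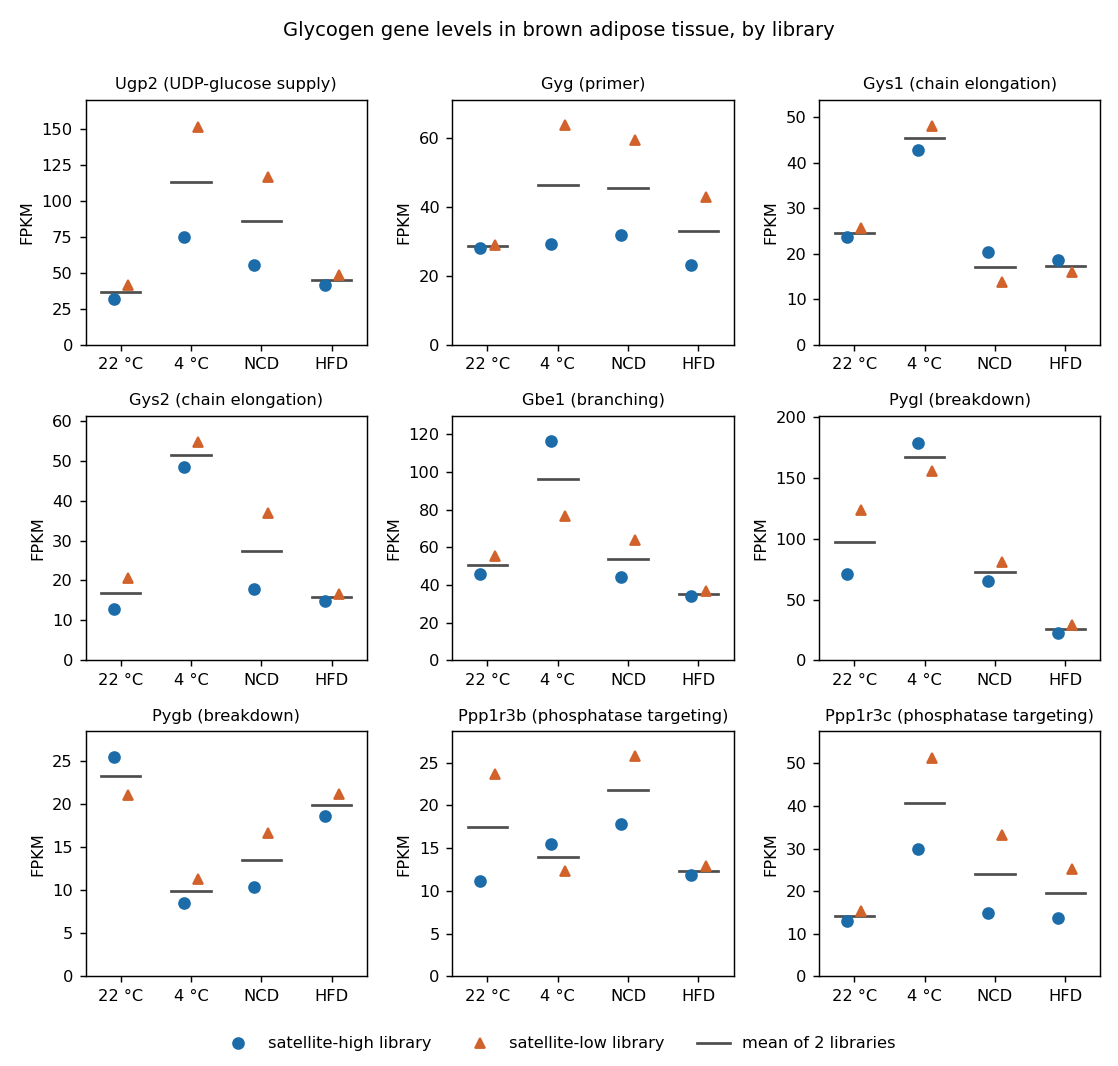
Level of each of the 9 genes in FPKM (linear axis from 0) by group, 1 point per library (circles satellite-high, triangles satellite-low), with a bar at the mean of 2 libraries. Ugp2, Gys1, Gys2, Gbe1, Pygl and Ppp1r3c lay higher in the cold without overlap with 22 °C, as did Gyg by a narrow margin. Pygb lay lower in the cold, and Pygl lay at 22.7 and 28.8 FPKM on HFD, below both NCD libraries.

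The first comparison was 24 h at 4 °C against 22 °C. Genes of every step of synthesis were higher in both cold libraries, with mean folds of 1.63 to 3.1 for Ugp2, Gyg, Gys1, Gys2, Gbe1 and Ppp1r3c, although Gyg differed by under 1 FPKM between its nearest libraries. The phosphorylase Pygl was also higher (1.71-fold), while Pygb was 2.36-fold lower. These folds depend on the scaling: with quantile normalization the log2 fold changes of Gyg, Gys1, Gbe1 and Pygl shrank to 0.05, 0.37, 0.36 and 0.27, and those of Ugp2, Gys2 and Ppp1r3c to 0.98, 1.13 and 0.95. In limma's fit none of the 9 passed the threshold (adjusted p under 0.05 and a log2 fold change of 1 or more in either direction), against 252 of 17470 genes tested (1.44%). With library type as a covariate, 4 of 9 passed, Gys2, Ugp2 and Ppp1r3c higher and Pygb lower, against 4.92% of all genes. At an unadjusted p under 0.05, 6 of 9 members and 24.5% of all genes stood in the first fit. Without overlap between groups, 7 of 9 members were higher in the cold, as were 37.9% of all genes, and 1 of 9 was lower, as were 20.6%. The median log2 fold change of the members was 0.86 and that of all genes tested 0.07.

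Ugp2 (ENSMUSG00000001891, chr11:21321138-21371201, minus strand), which supplies the UDP-glucose, measured 31.6 and 41.7 FPKM at 22 °C (replicates 4 and 7) and 152 and 74.8 FPKM at 4 °C (replicates 2 and 11). Both cold libraries were above both at 22 °C, and the satellite-low library, replicate 2, had the higher of the cold values. The log2 fold change was 1.53 (adjusted p = 0.0987, SE 0.39), and 1.22 and 1.84 within the satellite-high and satellite-low pairs. Adding library type brought its adjusted p to 0.0288, and over all alternatives it ranged from 0.023 to 0.252. Gyg (ENSMUSG00000019528, chr3:20122084-20155317, minus strand), the primer protein, was less clear. It measured 28.1 and 28.9 FPKM at 22 °C and 63.9 and 29.2 at 4 °C, so that the satellite-high cold library lay just above both 22 °C libraries. Its log2 fold change was 0.58 (adjusted p = 0.407, SE 0.39), and within the satellite-high pair it was 0.05.

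Both synthase genes were higher in both cold libraries than in either at 22 °C. Gys2 (ENSMUSG00000030244, chr6:142422613-142473109, minus strand) measured 12.9 and 20.6 FPKM at 22 °C and 54.6 and 48.3 at 4 °C. Its groups were far apart, with a mean fold of 3.07 and a log2 fold change of 1.59 (adjusted p = 0.056, SE 0.28). Adding library type gave an adjusted p of 0.024, with a range of 0.0076 to 0.185 over all alternatives. Gys1 (ENSMUSG00000003865, chr7:45434844-45456619, plus strand) measured 23.6 and 25.7 FPKM at 22 °C and 48.1 and 42.8 at 4 °C. The fold was smaller, 1.85 between means, with a log2 fold change of 0.86 (adjusted p = 0.0874, SE 0.2) that was nearly equal within both library types (0.83 and 0.88). Gys2 thus made up 35.4% and 44.5% of summed Gys1 and Gys2 FPKM at 22 °C and 53.2% and 53.0% at 4 °C. An exact permutation test of 2 against 2 libraries cannot go below p = 0.333, the value found here. Gys1 is the synthase of muscle, and the muscle markers were higher in both cold libraries; their part in the Gys1 level was not tested. In bulk tissue a change in the share of a cell type cannot be told apart from a change of RNA per cell.

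Gbe1 (ENSMUSG00000022707, chr16:70313949-70569716, plus strand), the branching enzyme, measured 45.7 and 55.3 FPKM at 22 °C and 76.5 and 116 at 4 °C. The groups did not overlap, and the log2 fold change was 0.89 (adjusted p = 0.15, SE 0.29). Here the satellite-high pair differed more (1.33) than the satellite-low pair (0.46).

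The phosphorylases parted. Pygl (ENSMUSG00000021069, chr12:70190811-70231488, minus strand) measured 71.3 and 124 FPKM at 22 °C and 156 and 178 at 4 °C. The groups did not overlap, but the spread at 22 °C was wide, and the log2 fold change was 0.82 (adjusted p = 0.216, SE 0.34). Pygb (ENSMUSG00000033059, chr2:150786735-150831758, plus strand) measured 25.5 and 21.1 FPKM at 22 °C and 11.3 and 8.49 at 4 °C. It was the only member lower in both cold libraries, with a log2 fold change of -1.17 (adjusted p = 0.0633, SE 0.23). The fit with library type gave an adjusted p of 0.0441, and it ranged from 0.0139 to 0.27 over all alternatives. Pygb made up 26.4% and 14.6% of summed Pygl and Pygb FPKM at 22 °C and 6.74% and 4.54% at 4 °C (exact permutation p = 0.333, the smallest possible). Markers of neurons and glia (5 of 6 found), cells in which Pygb is known to be used, summed to 8.54 and 8.56 FPKM at 22 °C and 27.2 and 32.9 FPKM at 4 °C. Most of this sum was S100b (7.66 and 7.95 FPKM at 22 °C, 23.3 and 21.4 FPKM at 4 °C), while the neuronal genes Snap25 and Syt1 were at or below 0.0351 FPKM in these 4 libraries. The part of such cells in the Pygb level was not tested.

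The phosphatase-targeting genes did not move alike. Ppp1r3c (ENSMUSG00000067279, chr19:36731737-36736653, minus strand), which encodes the subunit also called PTG, measured 12.9 and 15.3 FPKM at 22 °C and 51.3 and 30 at 4 °C. Both cold libraries were well above both at 22 °C, with a mean fold of 2.88 and a log2 fold change of 1.42 (adjusted p = 0.0756, SE 0.31). The adjusted p was 0.0288 once library type was in the fit, in a range of 0.0186 to 0.208 over all alternatives. Ppp1r3b (ENSMUSG00000046794, chr8:35375739-35388139, plus strand), which encodes the subunit best known from liver, measured 11.2 and 23.7 FPKM at 22 °C and 12.3 and 15.5 at 4 °C. Its groups overlapped, and the log2 fold change of -0.23 (adjusted p = 0.751, SE 0.37) was 0.44 within the satellite-high pair and -0.89 within the satellite-low pair.

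**Figure D2:**
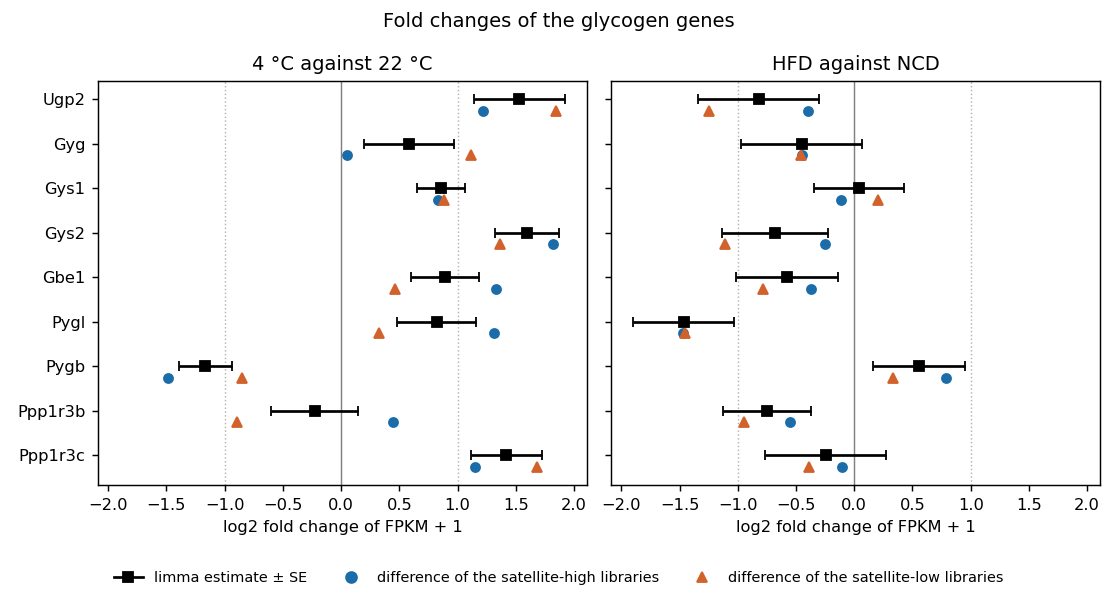
Log2 fold change of FPKM + 1 for each member at 4 °C against 22 °C (left) and on HFD against NCD (right), as limma's estimate ± SE (black squares) and as the difference between the satellite-high libraries (circles) and between the satellite-low libraries (triangles); dotted lines stand at a log2 fold change of 1 in either direction. Gys2, Ugp2 and Ppp1r3c lay beyond 1 in the cold, Pygb beyond -1, and Pygl at -1.46 on HFD.

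The second comparison was HFD against NCD. Pygl, the main phosphorylase on NCD, was 2.82-fold lower on HFD, and Pygb was 1.47-fold higher. Gys2, Gbe1, Ugp2 and Ppp1r3b were 1.53- to 1.9-fold lower in mean, and Gys1, Gyg and Ppp1r3c overlapped between diets. In limma's fit none of the 9 members passed the threshold, against 12 of 17535 genes (0.0684%), and 1 member, Pygl, had an unadjusted p under 0.05, as did 14.4% of all genes. With library type as a covariate, 1 of 9 passed, Pygl, against 4.24% of all genes. Both HFD libraries were below both NCD libraries for 5 of 9 members and for 5.8% of all genes, and above them for 1 of 9 members and 39.9% of all genes. The members' median log2 fold change was -0.58, and that of all genes tested 0.18.

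Pygl measured 80.6 and 64.9 FPKM on NCD (replicates 6 and 8) and 22.7 and 28.8 on HFD (replicates 2 and 6). Both HFD values were far below both NCD values. The log2 fold change was -1.46 (adjusted p = 0.21, SE 0.43), and it was nearly equal within the satellite-high pair (-1.47) and the satellite-low pair (-1.45). With library type as a covariate the adjusted p was 0.0074, and 0.0383 when all 8 libraries entered that fit; it ranged from 0.0074 to 0.993 over all alternatives. Pygb measured 16.6 and 10.4 FPKM on NCD and 18.6 and 21.2 on HFD. Both HFD values were above both NCD values by a small margin, with a log2 fold change of 0.56 (adjusted p = 0.568, SE 0.39) that ranged from 0.20 to 0.88 over the alternatives. Pygb accordingly made up 17.1% and 13.8% of summed Pygl and Pygb FPKM on NCD and 45.0% and 42.4% on HFD (exact permutation p = 0.333, the smallest possible). Markers of other cells were compared between the diets too, where 39.9% of all genes were higher on HFD and 5.8% lower without overlap. Macrophage markers, summed over the 6 listed, were 38.4 and 108 FPKM on NCD and 189 and 242 on HFD, with all 6 higher without overlap. White adipocyte markers summed to 11.8 and 20.7 FPKM on NCD and 163 and 172 on HFD, with 3 of 4 higher without overlap. Calls were made for 2 of these 4, against 0.0684% of all genes. Of the erythroid markers, the autosomal Hba-a1 measured 58.5 and 49.4 FPKM on NCD and 96 and 206 on HFD. Endothelial markers summed to 44.7 and 52.6 FPKM on NCD and 72 and 79 on HFD, with 2 of 4 higher without overlap, near the share of all genes, and Kdr and Cdh5 overlapping. Hepatocyte markers were near 0, with sums of 2.35 and 3.59 FPKM on NCD and 0.601 and 1.39 on HFD and 4 of the 5 found lower without overlap. The part of these cells in the levels of Pygl, Pygb, Gys2 and the other members on HFD was not tested.

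Among the synthesis genes, Ugp2 measured 117 and 55.3 FPKM on NCD and 41.9 and 48.5 on HFD. The groups did not overlap, yet the NCD libraries differed more from each other than the NCD satellite-high library did from HFD, and the log2 fold change was -0.82 (adjusted p = 0.527, SE 0.52). Gys2 showed the same layout, with 37 and 17.9 FPKM on NCD and 14.9 and 16.6 on HFD and a log2 fold change of -0.68 (adjusted p = 0.548, SE 0.45). Gbe1 measured 63.7 and 44.3 FPKM on NCD and 33.9 and 36.7 on HFD, again without overlap (log2 fold change -0.58, SE 0.44, adjusted p = 0.598). For all 3 genes the higher NCD value was that of replicate 6.

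Gys1 measured 13.8 and 20.3 FPKM on NCD and 18.6 and 16 on HFD. Its groups overlapped, and the log2 fold change of 0.04 (adjusted p = 0.972, SE 0.39) turned negative under each of the other scalings (-0.09 to -0.32). Of the 11 muscle markers found, 10 were lower in both HFD libraries than in both NCD libraries, as were 5.8% of all genes. The part of muscle RNA in the Gys1 level was not tested. Gyg measured 59.4 and 31.8 FPKM on NCD and 23.1 and 42.9 on HFD, and Ppp1r3c 33.3 and 14.9 on NCD and 13.7 and 25.2 on HFD. Both overlapped between diets and were higher in the satellite-low library of each. Ppp1r3b measured 25.8 and 17.8 FPKM on NCD and 11.8 and 12.9 on HFD, without overlap, with a log2 fold change of -0.75 (adjusted p = 0.428, SE 0.38). In the fit with library type its adjusted p was 0.0385, but its fold change stayed short of the threshold, and over all alternatives the adjusted p ranged from 0.0385 to 1.

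**Figure D3:**
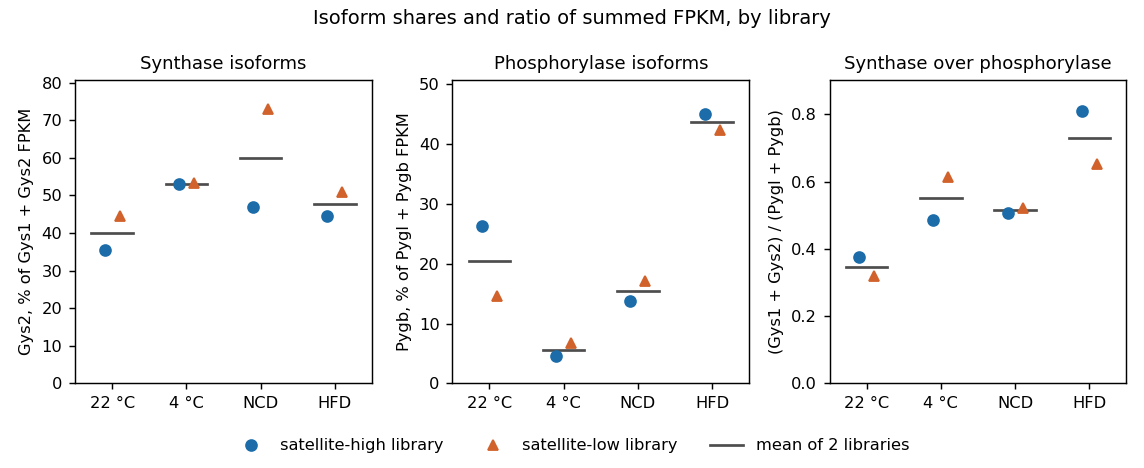
Per library and group, Gys2 as a percentage of Gys1 + Gys2 FPKM (left), Pygb as a percentage of Pygl + Pygb FPKM (middle) and the ratio of summed synthase to summed Pygl and Pygb FPKM (right); symbols and bars mark library types and means of 2 libraries. The Pygb share was 4.54% and 6.74% at 4 °C and 42.4% and 45.0% on HFD. Pygm, the muscle phosphorylase, is left out of the ratio drawn.

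The balance of transcripts between synthase and phosphorylase was compared with and without Pygm, the muscle phosphorylase. The 22 °C libraries had a ratio of summed Gys1 and Gys2 to summed Pygl and Pygb FPKM of 0.377 and 0.319, and the 4 °C libraries of 0.614 and 0.487. It was 0.522 and 0.508 on NCD and 0.812 and 0.651 on HFD. In both comparisons the groups did not overlap, with the exact permutation p at its smallest possible value of 0.333. In the cold Gys2 had a higher mean fold than Pygl, whereas on HFD Pygl was lower by more than Gys2 was. With Pygm added to the denominator, the 22 °C libraries had ratios of 0.315 and 0.308 and the 4 °C libraries 0.321 and 0.359, while the values were 0.447 and 0.305 on NCD, and 0.709 and 0.636 on HFD. The cold difference in means was then only 0.0285 (0.00954 to 0.0474 with 1 library left out), against 0.203 without Pygm, and the HFD difference was 0.297.

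The difference between the effects of cold and of HFD was tested in 1 fit over all 8 libraries. The difference was above 0 for 8 of 9 members and below 0 for Pygb. Its median on the log2 scale was 1.47 for the members and -0.09 for all genes tested. None of the 9 passed the threshold, against 196 of 18894 genes (1.04%), and 6 of 9 had an unadjusted p under 0.05, as did 18.4% of all genes. With library type as a covariate, 5 of 9 passed, against 3.17% of all genes: Ugp2, Gys2, Pygl and Ppp1r3c with the cold effect above the HFD effect, and Pygb with it below. The difference on the log2 scale was 2.28 for Pygl (SE 0.51, adjusted p = 0.0769, and 0.0378 with library type), 2.27 for Gys2 (SE 0.54, adjusted p = 0.0878, and 0.0336 with library type) and -1.73 for Pygb (SE 0.41, adjusted p = 0.0878, and 0.0459 with library type). For Ugp2 it was 2.35 (SE 0.67, adjusted p = 0.128, and 0.0378 with library type). For Ppp1r3c it was 1.66 (SE 0.66, adjusted p = 0.24, and 0.0487 with library type). Over all alternatives the adjusted p ranged from 0.0359 to 0.276 for Pygl, from 0.0319 to 0.292 for Gys2, from 0.022 to 0.297 for Pygb, from 0.0378 to 0.381 for Ugp2 and from 0.0487 to 0.523 for Ppp1r3c.

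Of 28 other genes of glycogen metabolism listed, 25 were found and 22 could be tested. None passed the threshold in either comparison, while with library type as a covariate 2 of the 22 were higher in the cold and 3 of the 22 were lower on HFD, against 4.92% and 4.24% of all genes called. Without overlap between groups, 11 of the 22 were higher and 5 lower in the cold, against 37.9% and 20.6% of all genes. On HFD 2 of the 22 were higher and 4 lower, against 39.9% and 5.8% of all genes. Their median log2 fold change was 0.27 in the cold and 0.07 on HFD. Gaa, the lysosomal enzyme that breaks glycogen down, measured 6.03 and 6.39 FPKM at 22 °C and 16.7 and 12.5 at 4 °C, and the log2 fold change was 1.10 (adjusted p = 0.0627, and 0.0388 with library type). Phkb, a subunit of the kinase that activates phosphorylase, measured 7.72 and 7.59 FPKM at 22 °C and 23.2 and 10.1 at 4 °C (log2 fold change 0.92, adjusted p = 0.219). Stbd1, a glycogen-binding protein linked to its lysosomal breakdown, measured 1.53 and 1.27 FPKM at 22 °C and 0.444 and 0.526 at 4 °C (log2 fold change -0.69, adjusted p = 0.0579). Ppp1r3e, another phosphatase-targeting gene, was also lower in both cold libraries, with 1.53 and 1.75 FPKM in the 22 °C group and 0.767 and 0.712 in the 4 °C group (log2 fold change -0.60, adjusted p = 0.0765).

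Pygm, Ppp1r3a and Phkg1 were without overlap higher in the cold and lower on HFD. Pygm, the muscle phosphorylase, measured 18.9 and 5.2 FPKM at 22 °C, 153 and 66.8 at 4 °C, 16.3 and 50.1 on NCD, and 5.95 and 1.18 on HFD. In the cold its log2 fold change was 3.20 (adjusted p = 0.0683, and 0.0403 with library type) and on HFD -2.93 (SE 0.68, adjusted p = 0.163, and 0.00129 with library type). Ppp1r3a, the targeting subunit of muscle, and Phkg1, the catalytic phosphorylase kinase subunit of muscle, shared this layout. Ppp1r3a measured 0.738 and 0.178 FPKM at 22 °C, 4 and 2.1 at 4 °C, 1.25 and 3.88 on NCD, and 0.433 and 0.0403 on HFD. Phkg1 measured 3.72 and 1.43 FPKM at 22 °C, 9.84 and 4.82 at 4 °C, 1.95 and 3.71 on NCD, and 0.78 and 0.55 on HFD. Both passed on HFD with library type as a covariate, Ppp1r3a with a log2 fold change of -1.44 (adjusted p = 0.00699) and Phkg1 with -1.17 (adjusted p = 0.00905). The muscle creatine kinase Ckm, a marker of muscle fibres, was high and low in nearly the same libraries, with 115 and 21.7 FPKM at 22 °C, 1002 and 404 at 4 °C, 130 and 257 on NCD, and 31.4 and 3.58 on HFD. The part of muscle RNA in these 3 genes was not tested. Ppp1r3g, a further targeting gene at low level, measured 0.405 and 0.231 FPKM on NCD and 0.0718 and 0.0349 on HFD (log2 fold change -0.32, adjusted p = 0.193). The X-linked Phka1, the muscle form of a phosphorylase kinase subunit, and Phka2 and Ppp1r3f were listed at 0 in both 22 °C libraries and NCD replicate 6, in which all X genes were listed at 0, and were not compared.

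**Figure D4:**
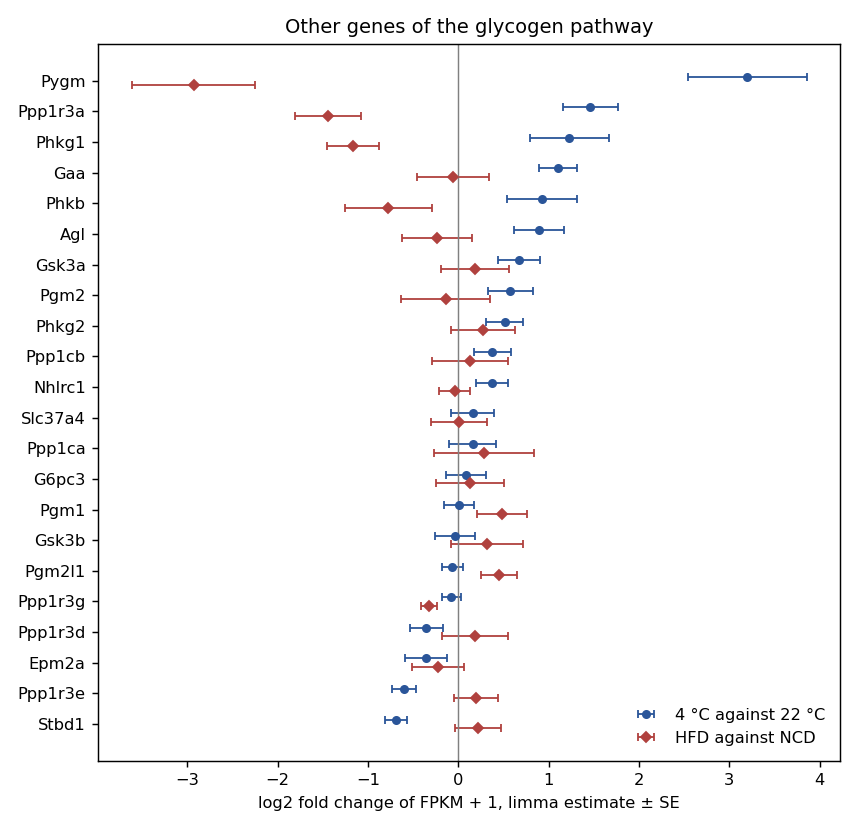
Log2 fold change of FPKM + 1 (limma estimate ± SE) of the 22 other glycogen genes tested, at 4 °C against 22 °C (circles) and on HFD against NCD (diamonds), ordered by the cold value. Pygm, Ppp1r3a and Phkg1 lay highest in the cold and lowest on HFD.

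Pygl and Ugp2 had the widest range of log2(FPKM + 1) over the 8 libraries, 2.92 and 2.23, and the genes most like them were sought among 9922 protein-coding genes. Closest to Pygl were Elovl6, a fatty acid elongase (Pearson r = 0.98, Spearman rho = 0.976), Rab40b (r = 0.965) and Tst, a mitochondrial sulfurtransferase (r = 0.963). Elovl6 measured 39.2 and 107 FPKM at 22 °C, 127 and 185 at 4 °C, 74.5 and 60.5 on NCD, and 14.4 and 14.7 on HFD. Closest to Ugp2 were Sar1b, a GTPase of vesicle budding (r = 0.985, rho = 0.976), Aig1 (r = 0.964) and Timm8b, a mitochondrial import protein (r = 0.957). Sar1b measured 27.7 and 30.6 FPKM at 22 °C, 89 and 49.1 at 4 °C, 67.5 and 44.8 on NCD, and 29.4 and 38.8 on HFD. As in Ugp2, the satellite-low library was the higher in each group. These correlations are over 8 libraries that share group and library type and were picked as the highest of all genes, so they describe a likeness only.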

How the data were processed

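BAT RNA of 8 samples was sequenced by the authors after depletion of ribosomal RNA, as directional paired-end libraries. They mapped reads to GRCm38 with TopHat2 2.0.10 and estimated gene levels with Cufflinks (2.2.1 in the submitters' processing notes) on Ensembl genes. The deposited table gives these FPKM for each gene in each library, from the authors, and replicates were not pooled. It holds no counts, so the FPKM were analysed as log2(FPKM + 1), a scale that understates fold changes of low genes. Of 49452 genes, 49109 matched GENCODE M21 by identifier, which gave positions on GRCm38 from base 1.

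limma 3.58.1 in R 4.3.3 (lmFit, eBayes with trend) compared the 4 libraries of a comparison without a covariate, and all 8 for the difference of effects. Autosomal genes with at least 0.1 FPKM in at least 2 libraries were tested, because 3 libraries list every X gene at 0. P-values are two-sided, Benjamini-Hochberg adjusted over all genes tested, and a call needs an adjusted p under 0.05 and a log2 fold change of 1 or more in size. The script was tested on simulated data. Shares were compared by exact two-sided permutation tests (SciPy 1.17.1, NumPy 2.4.6, pandas 2.3.3). Nothing in the labels says that libraries are more than separate samples of a group, so p-values measure the spread between them, which may be partly technical. Fragment numbers were inferred from the step of low values in genes with 1 exon, of which 97.5% to 98.6% were whole within 0.1 fragment, and they cover counting error only.

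The members, lists and library type were chosen with earlier results of these data known. Named were all members, those other glycogen genes past threshold or without overlap at a mean fold of 2 or more, and the 3 genes most like each of the 2 widest-ranging members. Of the 28 listed genes, Ppp1cc, Gyg2 and Ugp1 were not found by symbol. Alternatives changed the pseudocount, filter, scaling, covariate, libraries in the fit and chromosomes, and left out each library.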

Additional observations from a re-analysis of the deposited data

How the results depend on the processing

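In the cold, none of 9 members was called with a pseudocount of 0.1, no filter or all 8 libraries in 1 fit. In limma, 6 had an unadjusted p under 0.05 in each, against 24.6%, 13.9% and 19.7% of all genes. A filter of 1 FPKM (Gys2), quantile normalization (Pygb) and rescaling to the autosomal sum (Pygb) gave 1 call each. Keeping X, Y and mitochondrial genes gave 2 (Gys2, Pygb), median centring 3 (Gys2, Pygb, Ppp1r3c). Library type in the fit of 4 and of 8 libraries gave 4. Leaving out 1 library gave 0 to 3 members: Ugp2, Gys2 and Ppp1r3c without 22 °C replicate 7, and Ppp1r3c without 4 °C replicate 11. Over all genes the 252 calls became 475 with a pseudocount of 0.1, 0 with no filter (4689 at an unadjusted p under 0.05 in limma), 529 with a filter of 1 FPKM, 489 with quantile normalization, 750 with median centring, 583 with rescaling, 859 with library type, 439 with 8 libraries, 869 with 8 libraries and library type, 920 with X, Y and mitochondrial genes, and 1 to 766 with 1 library left out (1 without 4 °C replicate 2).

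On HFD, 1 member (Pygl) was called with library type in the fit of 4 and of 8 libraries, against 4.24% and 2.5% of all genes. Every other alternative that kept all libraries called 0. At an unadjusted p under 0.05 there were 6 members with each of the other scalings (quantile, median and rescaling) in limma, against 12.1%, 9.47% and 13.6% of all genes, and 0 to 2 with 1 library left out, against 6.96% to 17.3%. The 12 calls over all genes became 0 with no filter, with quantile normalization, with rescaling and with X, Y and mitochondrial genes kept (2490, 2126, 2426 and 2533 at an unadjusted p under 0.05), 24 with a filter of 1 FPKM, 43 with median centring, 744 with library type, 75 with 8 libraries, 439 with 8 libraries and library type, and 99 to 727 with 1 library left out. For the difference of effects, 3 members were called with quantile normalization, 4 with median centring, 4 with rescaling and 5 with library type, against 2.17%, 2.48%, 5.12% and 3.17% of all genes, and 0 to 1 with 1 library left out (Pygb without NCD replicate 6, against 2.87% of all genes).

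The log2 fold change of Gys1 on HFD turned to -0.23 with quantile normalization, -0.32 with median centring and -0.0913 with rescaling, and ranged from -0.22 to 0.31 with 1 library left out (negative without NCD replicate 6 and without HFD replicate 2). That of Ppp1r3c on HFD ranged from -0.80 to 0.31 (positive without the same libraries) and that of Ppp1r3b in the cold from -0.74 to 0.29 (positive without 22 °C replicate 7). With 1 library left out, the HFD difference in the Gys2 share ranged from -25.1 to 0.82 percentage points (above 0 without NCD replicate 6), and the cold differences from 8.63 to 17.7 for the Gys2 share and from -20.7 to -8.93 for the Pygb share (both smallest in size without 22 °C replicate 4). The causes were not tested. All other members kept their direction in the alternatives run for the cold and HFD comparisons, but not their size: without NCD replicate 6 the HFD values became -0.29 for Ugp2, -0.18 for Gys2, -0.32 for Gbe1 and -0.01 for Gyg, and that of Pygb 0.88 (0.24 without NCD replicate 8, 0.20 with median centring).

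As deposited, protein-coding genes of at least 1 FPKM had a median log2 fold change of 0.21 in the cold and 0.29 on HFD; the other scalings moved it to between -0.17 and -0.05 in the cold and between -0.07 and 0.18 on HFD. Under them and the other alternatives the cold fold change ranged from 1.13 to 1.91 for Gys2, from 0.98 to 2.04 for Ugp2, from 0.95 to 1.79 for Ppp1r3c, from -1.60 to -0.98 for Pygb, from 0.27 to 1.21 for Pygl, from 0.36 to 1.19 for Gbe1, from 0.37 to 0.94 for Gys1 and from 0.03 to 1.14 for Gyg (lowest without 4 °C replicate 2), and the HFD fold change of Pygl from -1.82 to -1.30. No paired analysis was made because nothing in the labels links a library of 1 group to a library of the other. The covariate leaves 1 residual degree of freedom per gene among 4 libraries, and with 1 library left out the lone library is assumed to vary like the other group.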

Other observations

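A comparison added after the data were seen set the 4 satellite-low libraries against the 4 satellite-high ones, with the group in the fit. None of the 9 members passed the threshold, in limma as deposited and under another pseudocount or scaling, against 9 of 18894 genes as deposited (0.0476%). As deposited, 4 had an unadjusted p under 0.05, as did 26.0% of all genes. Ugp2, Gyg, Gys2 and Ppp1r3c were higher in the satellite-low library of every group, as were 26.2% of all genes. Their log2 differences were 0.67 for Ugp2 (SE 0.2, adjusted p = 0.142, range 0.114 to 0.524 over alternatives), 0.72 for Gyg (SE 0.2, adjusted p = 0.139, range 0.0701 to 0.365), 0.49 for Gys2 (SE 0.18, adjusted p = 0.166, range 0.163 to 0.763) and 0.73 for Ppp1r3c (SE 0.17, adjusted p = 0.139, range 0.0591 to 0.244). Under other scalings these differences fell as low as 0.20 for Ugp2, 0.30 for Gyg, 0.11 for Gys2 and 0.35 for Ppp1r3c. For Gyg the difference as deposited exceeded the cold difference of 0.58. Of the other members, Gys1 was at -0.11 and Gbe1 at 0.07 as deposited, and both reached lower values under another scaling (-0.49 and -0.39). The sign turned under another scaling for Gbe1 and also for Pygl (0.31 to -0.16), Pygb (0.23 to -0.12) and Ppp1r3b (0.34 to -0.01).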
